A study of Mus musculus with 15 samples.

Results

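Transcripts of 7 genes of the brain endothelium and the blood-brain barrier, Cldn5, Flt1, Slc2a1, Abcb1a, Itm2a, Bsg and Tjp1, were measured in mouse cortex. Members were matched by gene name, and the 7 genes had been proposed with earlier results of these data known. They comprised every listed transcript of these genes, 10 of 10370 transcripts. Libraries of total RNA came from dissected cortex of male C57BL/6 mice, with a label age of 12 weeks. In 8 libraries the mice had undergone high-frequency head impact (HF-HI) and in 7 a Sham procedure, 1 month earlier. Per the study's methods both groups received isoflurane anesthesia, and Sham mice were handled in the same way without impacts. Both groups were whole cortex, a mixture of cell types, and fewer endothelial cells and less RNA per cell cannot be told apart in such samples.

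The blood-brain barrier is formed by brain endothelial cells, which are sealed to each other by tight junctions and carry transporters that let nutrients in and keep foreign compounds out. Pericytes and astrocyte endfeet surround these cells, and endothelial Wnt and VEGF signaling set up and adjust the barrier. Among the 7 genes, claudin-5 (Cldn5) and ZO-1 (Tjp1) belong to the junction, GLUT1 (Slc2a1) carries glucose, P-glycoprotein (Abcb1a) pumps drugs back into the blood, VEGF receptor 1 (Flt1) binds VEGF, basigin (Bsg) is a chaperone of lactate transporters, and Itm2a is a membrane protein enriched in brain endothelium. Tjp1, Slc2a1 and Bsg are also made by other brain cells. Of 34 genes used as markers of endothelial identity, 14 were listed and the levels of the other 20, Pecam1, Cdh5, Kdr and Tek among them, were not analysed here.

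Levels are given as normalized counts, that is, reads divided by the size factor of the library. Total reads over the listed transcripts ranged from 5798810 to 10582858 in Sham libraries and from 3496103 to 8666307 in HF-HI libraries, so the HF-HI group held the shallowest libraries. HF-HI replicate 2 stood apart on the first principal component (14.3% of variance), at 12.6 against -3.35 to 0.72 for the others. Ttr, the choroid plexus transthyretin, was between 6589 and 8663 normalized counts in Sham replicates 1 and 2 and HF-HI replicates 2 and 5, and at most 176 in the other 11 libraries. Nothing in the labels says that libraries came from separate animals, so p-values measure only the spread between these samples.

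Cldn5, Slc2a1, Abcb1a and Itm2a were each listed with a single transcript, whereas Flt1, Bsg and Tjp1 had 2 each. Positions are those of the GRCm38 build. Cldn5-201 lies on the plus strand at chr16:18776847-18778262 as a single exon, and Slc2a1-201 on the plus strand at chr4:119108711-119137983 in 10 exons. Both Flt1 transcripts are on the minus strand of chromosome 5. Flt1-202, at chr5:147561604-147726011, has 30 exons and encodes the membrane receptor. Flt1-203, at chr5:147635159-147725988, ends in exon 13, which reads through into the following intron, and encodes the soluble receptor that traps VEGF without signaling.

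Some coding stretches that tell the 2 transcripts of a gene apart are shown. The division of reads between the 2 transcripts rests on such stretches and on noncoding ones. The count of each transcript also holds the shared reads assigned to it. Both Flt1 transcripts share 2226 of their 6895 and 6292 bases. The Flt1-203 tail at chr5:147639130-147639224 holds 92 coding bases and a stop codon, in capitals, where Flt1-202 continues into its exon 14, 147 bases long, at chr5:147634377-147634523.
Flt1-203 tail: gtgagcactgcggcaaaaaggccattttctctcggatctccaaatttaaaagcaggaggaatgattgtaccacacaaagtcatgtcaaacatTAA
Flt1-202 exon 14: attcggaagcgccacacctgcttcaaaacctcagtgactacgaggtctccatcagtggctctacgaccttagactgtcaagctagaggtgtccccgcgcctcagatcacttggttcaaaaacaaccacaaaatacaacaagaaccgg

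The Tjp1 pair, on the minus strand of chromosome 7, shares 6042 of 6102 bases in Tjp1-201 and 7049 bases in Tjp1-202. Tjp1-202 holds a 240-base exon (exon 20 of 28, chr7:65314093-65314332) that Tjp1-201 skips, which encodes the alpha domain of ZO-1. The form without this domain is the one described as typical of endothelium. Tjp1-202 also has noncoding bases of its own, 224 in exon 1 and 543 in exon 28, not shown. The part of the reads assigned to Tjp1-202 therefore rests on these as well as on the alpha domain exon. Tjp1-201 holds 60 coding bases of its own in exon 26 of 27, at chr7:65299670-65299729.
Tjp1-202 exon 20: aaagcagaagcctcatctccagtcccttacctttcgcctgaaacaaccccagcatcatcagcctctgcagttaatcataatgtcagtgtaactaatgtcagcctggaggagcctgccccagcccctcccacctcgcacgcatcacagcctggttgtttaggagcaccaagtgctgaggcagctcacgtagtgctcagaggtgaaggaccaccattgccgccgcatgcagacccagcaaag
Tjp1-201 exon 26: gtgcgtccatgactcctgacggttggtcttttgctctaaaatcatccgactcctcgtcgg

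In Bsg, on the plus strand of chromosome 10, Bsg-205 (1261 bases) and Bsg-202 (1240 bases) share 1167 bases and differ only in their first exons. The first exon of Bsg-205 carries a start codon, in capitals, and 67 coding bases at chr10:79704518-79704584. The 73 bases particular to Bsg-202 are noncoding.
Bsg-205 exon 1: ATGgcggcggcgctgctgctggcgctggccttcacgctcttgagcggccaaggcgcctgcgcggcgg

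To compare levels between genes, normalized counts summed per gene were divided by transcript length in kilobases. In this unit Bsg was highest, at 1301 ± 77.1 in Sham (SD, n = 7) and 1285 ± 68.5 in HF-HI (SD, n = 8). Tjp1 followed at 160 ± 7.65 and 165 ± 8.64. Cldn5 (149 ± 6.30 in Sham), Slc2a1 (142 ± 7.97) and Itm2a (137 ± 22.0) had overlapping ranges of counts per kilobase, and Cldn5 exceeded Slc2a1 in 8 of 15 libraries. Tjp1 exceeded Cldn5 in 13 of 15 libraries. Flt1 (80.3 ± 6.64 in Sham) and Abcb1a (56.2 ± 4.66) were lowest, and the ranges of Itm2a, Flt1 and Abcb1a did not overlap. The order of Bsg above Tjp1 and of Itm2a above Flt1 above Abcb1a therefore held in every library, whereas Cldn5, Slc2a1 and Itm2a could not be ordered beyond their spread.

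**Figure D1:**
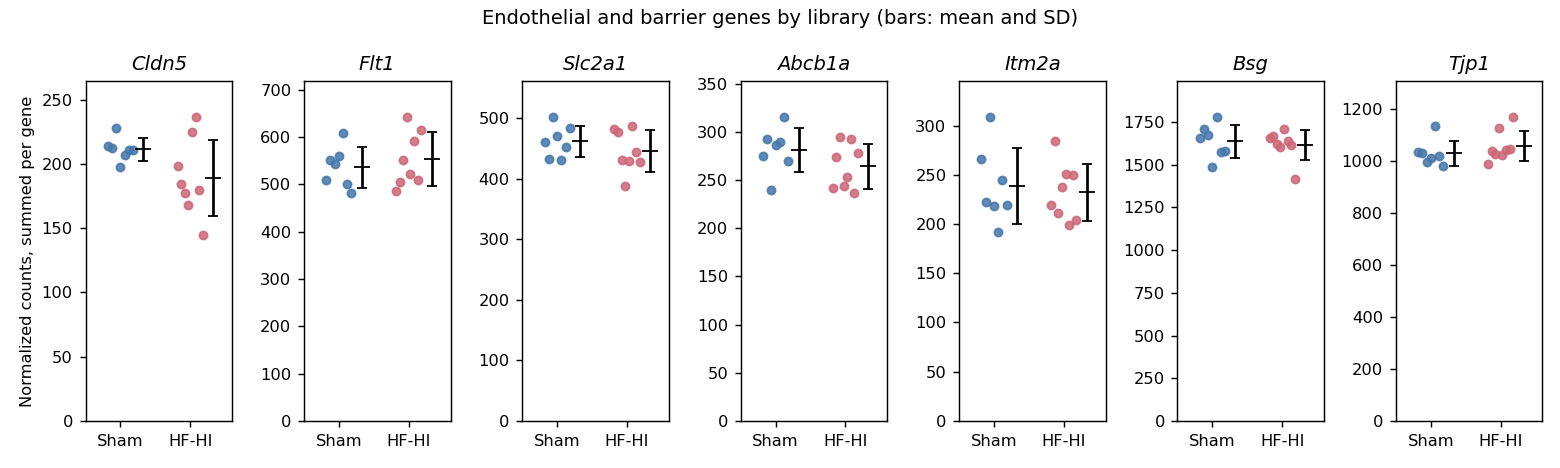
Normalized counts summed over the listed transcripts of each gene (y axis, from 0, own scale for each gene) in 7 Sham and 8 HF-HI libraries (x axis), 1 point a library, with the mean and SD as bars. The groups overlap in all 7 genes, and Cldn5 points spread from 145 to 236 in HF-HI against 198 to 227 in Sham.

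Summed per gene, 0 of the 7 genes differed between HF-HI and Sham at an unadjusted p of 0.05 by limma, against 9.81% of all 7870 genes tested (5.35% higher and 4.46% lower in HF-HI), and limma called 0 of the 7870 at an adjusted p of 0.1. The estimated differences were small, from -0.17 (Cldn5) to 0.04 (Flt1) on the log2 scale. The 95% interval of the change, by limma, ran from -10.7% to 4.05% for Slc2a1, -7.25% to 4.95% for Bsg, -2.96% to 8.79% for Tjp1 and -6.37% to 13.2% for Flt1. It ran from -14.7% to 3.53% for Abcb1a, -15.4% to 12.6% for Itm2a and -22.0% to 0.84% for Cldn5.

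Of single transcripts, 1 of 10 passed the unadjusted threshold of 0.05, against 8.83% of the 10370 transcripts tested, 916 in all. That number was 533 with the log2 size factor as a covariate and 504 with the length and GC slopes of each library as covariates. Size factor and length slope leaned with group. Size factors were 0.818 to 1.47 in Sham and 0.501 to 1.22 in HF-HI. Length slopes were -0.031 to 0.0080 in Sham and -0.0083 to 0.027 in HF-HI, in log2 per doubling of length. Fits with these covariates cannot fully tell a library property from the group. At an adjusted p of 0.1, limma called 0 of the 10370 transcripts. These tests used the deposited variance-stabilized (VSD) values, in which a doubling from 200 normalized counts is a step of 0.27 and one from 1000 a step of 0.53.

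**Figure D2:**
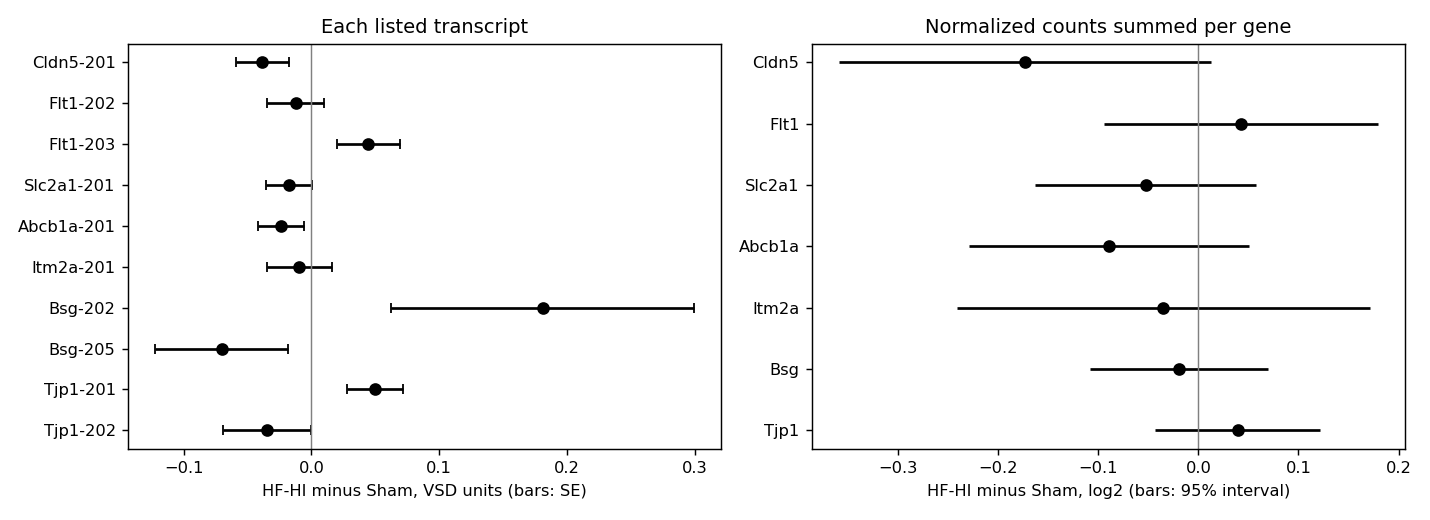
Difference between HF-HI and Sham for the 10 transcripts in VSD units, with the standard error as bars (left), and for counts summed over each of 7 genes on the log2 scale, with the 95% interval of limma as bars (right). Bsg-202 has the largest difference, 0.18, and the widest error, and all 7 intervals of the sums include 0.

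Claudin-5, the main strand-forming protein of the endothelial tight junction, had the largest difference among the sums. Cldn5-201 had 198, 211 and 227 normalized counts as the lowest, median and highest Sham libraries. In HF-HI the corresponding values were 145, 182 and 236. Of the 8 HF-HI libraries, 5 were below the lowest Sham library, while replicates 5 and 6, at 224 and 236, were among the highest of either group. The mean was 211 ± 8.92 for Sham and 189 ± 29.8 for HF-HI, which is -0.038 ± 0.021 (SE) VSD units (limma adjusted p = 0.605). On the log2 sums the difference was -0.17 ± 0.088 (SE, limma adjusted p = 0.535). An exact two-sided permutation test of the normalized counts, without log2, gave p = 0.0794. Without HF-HI replicate 6 or replicate 5, the 2 highest of the HF-HI group, Cldn5-201 passed the unadjusted threshold of limma. The VSD differences were then -0.049 and -0.047 and the adjusted p 0.523 and 0.490. Over all single libraries left out the difference ran from -0.049 to -0.027, and in the other alternatives it was as small as -0.025. Among the alternatives the unadjusted limma p reached 0.288 for Cldn5-201 and 0.256 for the log2 sum.

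The Cldn5 libraries of the HF-HI group were also more scattered, a comparison chosen after the values were seen. The mean absolute deviation was 0.165 in HF-HI against 0.037 in Sham on the log2 scale, with an exact permutation p of 0.0507 and an adjusted p of 0.999. Spread differed at an unadjusted exact p of 0.05 in 3.74% of genes (3.23% wider in HF-HI), and 65.7% of all genes were more scattered in HF-HI. For the Cldn5 spread the exact permutation p was 0.0256 without HF-HI replicate 7, 0.028 without HF-HI replicate 3, 0.0396 without HF-HI replicate 2, 0.0466 without Sham replicate 3 and 0.047 without Sham replicate 4, and up to 0.184 with another library or the high-Ttr libraries left out.

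ZO-1, the scaffold that links claudins to actin, gave the single called transcript. Tjp1-201, without the alpha domain exon, had 543, 628 and 669 normalized counts as the lowest, median and highest Sham libraries, and 603, 670 and 774 in HF-HI. The groups overlapped, but 7 of 8 HF-HI libraries were above the Sham median and 5 were above the highest Sham library. The mean was 618 ± 46.4 for Sham and 676 ± 51.7 for HF-HI, a log2 ratio of 0.13 and 0.050 ± 0.022 (SE) VSD units (limma adjusted p = 0.552). An exact permutation test of the normalized counts gave p = 0.0393. The unadjusted limma call was lost when any 1 of 9 libraries was left out. The VSD difference was then 0.038 without Sham replicate 6 and without HF-HI replicate 2, 0.042 without Sham replicate 7, 0.045 without HF-HI replicate 4 and 0.048 without HF-HI replicate 6. It was 0.051 without Sham replicate 2 and without Sham replicate 4, and 0.050 without HF-HI replicate 3 and without HF-HI replicate 8. With the length and GC slopes of each library as covariates it was 0.0056 (limma adjusted p = 0.998), where the length slope leaned with group as given above. The call on the Tjp1-201 difference was also lost with library weights (0.045, limma adjusted p = 0.573) and with the log2 size factor as a covariate (0.029, limma adjusted p = 0.968). It was lost too under the replicate block (0.050, limma adjusted p = 0.622) and by voom on the recovered reads (log2 difference 0.12, limma adjusted p = 0.598). The difference under the block is that without HF-HI replicate 8, which has no Sham library of its number.

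Tjp1-202, which carries the alpha domain exon shown above and noncoding ends of its own, went the other way without passing the test. Its lowest, median and highest values were 342, 403 and 475 normalized counts in Sham and 266, 386 and 496 in HF-HI, and the groups overlapped throughout. The means were 411 ± 46.0 and 383 ± 69.4 (limma adjusted p = 0.805). The sum of both transcripts was 1030 ± 49.7 in Sham and 1058 ± 58.7 in HF-HI (limma adjusted p = 0.778).

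Tjp1-201 took 60.1% ± 3.88 of the Tjp1 counts in Sham and 64.0% ± 5.35 in HF-HI, an exact permutation p of 0.138. The test of unequal change within a gene (diffSplice of limma) gave an adjusted p of 0.456 for Tjp1. Its unadjusted p was under 0.05 in 12.9% of the 1638 genes with 2 or more listed transcripts and in 0 of the 3 member genes, and its adjusted p under 0.1 in 1.77% and in 0. The share of Tjp1-202 had r = -0.54 with the GC slope of the library (Spearman's rho -0.62, permutation p = 0.0357 and 0.0163, adjusted 0.303 and 0.147, n = 15, group means removed, r = -0.42 without the 2 libraries farthest from the median).

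Of the VEGF receptor kinases Flt1 alone was listed, in its membrane and soluble forms. The soluble form, Flt1-203, had 158, 179 and 258 normalized counts as the lowest, median and highest Sham libraries, and 173, 221 and 243 in HF-HI. Of the HF-HI libraries 7 of 8 were above the Sham median, while the highest single value, 258, was Sham replicate 5. The mean was 187 ± 34.6 in Sham and 214 ± 23.8 in HF-HI, a log2 ratio of 0.19 (limma adjusted p = 0.618). Without Sham replicate 5 or HF-HI replicate 1 Flt1-203 passed the unadjusted threshold of limma, with VSD differences of 0.063 and 0.054 against 0.044 over all libraries and adjusted p of 0.405 and 0.511. These were the highest Sham and the lowest HF-HI library. Over all single libraries left out the difference ran from 0.036 to 0.063, and in the other alternatives it was as small as 0.013. The unadjusted limma p reached 0.657 among the alternatives.

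The membrane form, Flt1-202, ranged from 306 to 381 normalized counts for Sham (median 350) and from 285 to 407 for HF-HI (median 329). Its mean was 348 ± 26.6 in Sham and 339 ± 40.3 in HF-HI (limma adjusted p = 0.908). The soluble form took 34.8% ± 4.33 of Flt1 counts in Sham and 38.7% ± 2.75 in HF-HI (exact permutation p = 0.0601; diffSplice adjusted p = 0.464). Flt1-202 and Flt1-203 differ over most of their length, and across 15 libraries with group means removed their counts had r = 0.25 and rho = 0.40 (r = 0.26 without the 2 farthest libraries). Flt1 summed to 536 ± 43.1 in Sham and 553 ± 56.8 in HF-HI (limma adjusted p = 0.876).

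Neither of the 2 transporters of the set passed the test. Slc2a1-201, for GLUT1, had 431, 461 and 501 normalized counts as the lowest, median and highest Sham libraries, and 387, 438 and 487 in HF-HI. HF-HI replicate 4 was the lowest of all libraries, and 3 of the 8 were below every Sham library. The means were 462 ± 26.0 and 446 ± 34.3 (limma adjusted p = 0.815). Abcb1a-201, for P-glycoprotein, ranged from 240 to 315 for Sham (median 286) and from 236 to 294 for HF-HI (median 264). Its means were 281 ± 23.3 and 264 ± 23.4 (limma adjusted p = 0.733), and 6 of 8 HF-HI libraries were below the Sham median. An antisense gene overlaps each, Gm12868 over 105 exonic bases of Slc2a1-201 and Gm42686 over 242 of Abcb1a-201, neither of them listed.

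Itm2a, the remaining endothelial marker, overlapped throughout between groups. Itm2a-201 had 192, 222 and 308 normalized counts as the lowest, median and highest Sham libraries, and 199, 229 and 285 in HF-HI. Its highest values were in Sham replicates 1 and 3 and HF-HI replicate 2. The means were 239 ± 38.4 and 232 ± 29.2 (limma adjusted p = 0.941).

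**Figure D3:**
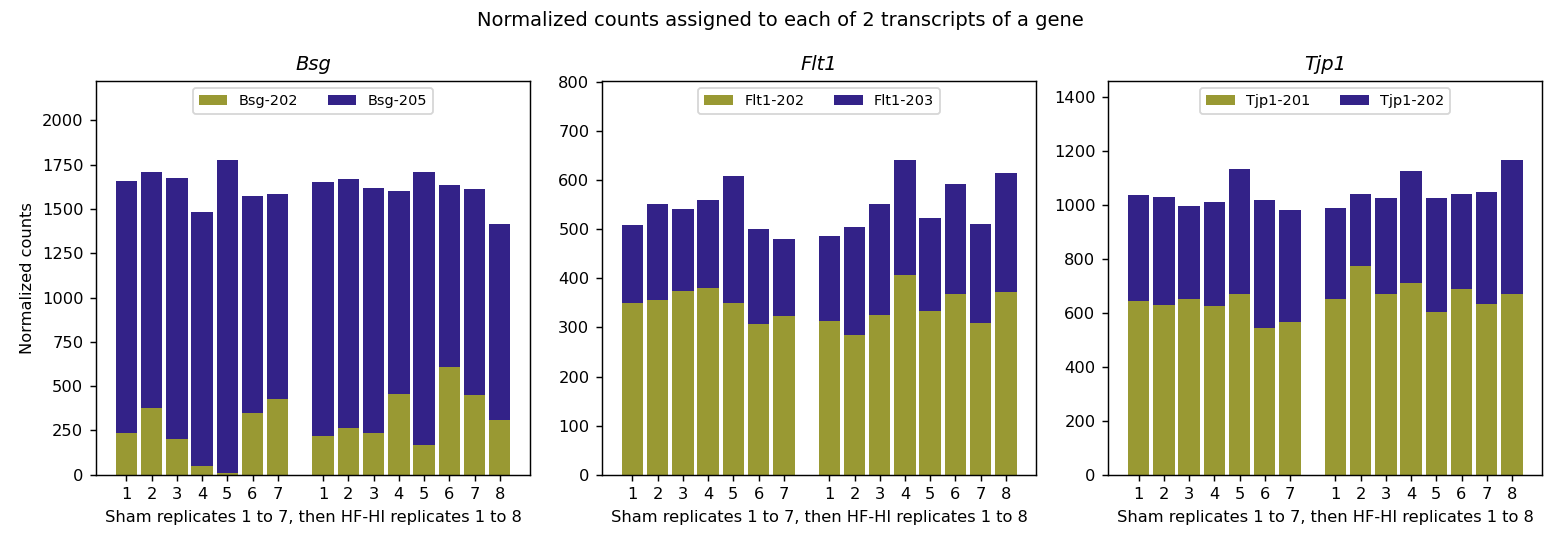
Normalized counts (y axis, from 0) assigned to each of 2 transcripts of Bsg, Flt1 and Tjp1, stacked by library (x axis, Sham replicates 1 to 7 and then HF-HI replicates 1 to 8). The Bsg-202 segment varies from 12.6 to 610 while the height of the Bsg stack stays between 1417 and 1777.

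Basigin, the chaperone of lactate transporters, was divided very differently between its transcripts from library to library. Bsg-202 had 12.6, 234 and 429 normalized counts as the lowest, median and highest Sham libraries, and 167, 287 and 610 in HF-HI. In Sham replicates 1 to 7 its values were 234, 376, 203, 50.9, 12.6, 348 and 429, so that replicates 4 and 5 were far below the others of their group. In HF-HI, replicates 4, 6 and 7, at 453, 610 and 452, were above every Sham library. The mean was 236 ± 161 in Sham and 338 ± 152 in HF-HI (limma adjusted p = 0.689).

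Bsg-205 moved against it from library to library. Its lowest, median and highest values were 1152, 1425 and 1764 in Sham and 1027, 1274 and 1541 in HF-HI, with means of 1401 ± 199 and 1276 ± 187 (limma adjusted p = 0.725). The Sham library with the least Bsg-202, replicate 5, had the most Bsg-205, and HF-HI replicate 6, with the most Bsg-202, had the least Bsg-205. Across 15 libraries with group means removed the 2 transcripts had r = -0.77 and rho = -0.79, and r was -0.80 without the 2 libraries farthest from the median. These values are a description with no test, because eXpress divides the reads that both transcripts share, so a read given to one is taken from the other.

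Bsg-202 took from 0.71% to 37.3% of the Bsg counts in single libraries, 14.5% ± 9.94 in Sham and 21.1% ± 9.45 in HF-HI (exact permutation p = 0.211; diffSplice adjusted p = 0.470). The coefficient of variation over all libraries was 54.7% for Bsg-202, 14.7% for Bsg-205 and 5.50% for their sum. Only 5.89% of Bsg-202 and 7.45% of Bsg-205 is sequence that the other lacks. The corresponding correlation was -0.53 for the Tjp1 pair (rho -0.41), but r was -0.18 without the 2 farthest libraries. Summed, Bsg was 1637 ± 97.6 in Sham and 1615 ± 86.8 in HF-HI (limma adjusted p = 0.919).

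To ask whether the 7 genes rose and fell together between libraries, their log2 sums were correlated in 21 pairs after removal of the group means (n = 15). One pair passed an adjusted permutation p of 0.05 by Pearson's r. The number was 5 without HF-HI replicate 6, 2 without HF-HI replicate 3, 5 or 8, and 0 with the length and GC slopes removed. Flt1 and Tjp1 varied together, with r = 0.79 (permutation p = 0.00026, adjusted p = 0.00546) and rho = 0.66 (permutation p = 0.00939, adjusted p = 0.0986). The r was 0.75 within Sham and 0.82 within HF-HI, 0.65 without the 2 libraries farthest from the median of Flt1, and 0.81 (adjusted permutation p = 0.0418) without the high-Ttr libraries. Sham replicate 5 and HF-HI replicates 4 and 8 held the 3 highest Tjp1 sums, from 1126 to 1168, and also the 3 highest Flt1 sums, from 608 to 641. Without these 3 libraries r was 0.40 (n = 12), and with the length and GC slopes of the libraries removed it was 0.72 with an adjusted permutation p of 0.0554.

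The other pairs did not pass over all 15 libraries. Slc2a1 and Tjp1 were nearest (r = -0.67, rho = -0.66, permutation p = 0.00577 and 0.00835, adjusted 0.0606 and 0.0986, r = -0.64 without the 2 farthest libraries). Cldn5 had r = 0.62 with Bsg (adjusted permutation p = 0.105) and -0.58 with Tjp1 (adjusted permutation p = 0.124). No pair among the 3 genes used as endothelial identity markers passed, with r = -0.32 for Cldn5 and Flt1, 0.17 for Cldn5 and Itm2a, and -0.43 for Flt1 and Itm2a (adjusted permutation p = 0.530, 0.680 and 0.280).

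The 3 libraries highest in Tjp1 also held the least Ttr, 35.0 normalized counts in Sham replicate 5, 33.9 in HF-HI replicate 4 and 21.04 in HF-HI replicate 8. Because the 4 high-Ttr libraries form a cluster of their own, members were related to log2 Ttr over the other 11 libraries only, with group means removed, among 28 relations of the 7 genes to library properties. Tjp1 had r = -0.87 with log2 Ttr (rho = -0.70, permutation p = 0.00084 and 0.0203, adjusted 0.0235 and 0.146), and r was -0.88 without the 2 farthest libraries. Slc2a1 (r = 0.78), Flt1 (r = -0.75) and Cldn5 (r = 0.70) had adjusted permutation p of 0.0626, 0.0761 and 0.0761. The relation was looked for after the values were seen and holds for these 11 libraries, since the 4 high-Ttr libraries had Tjp1 sums of 1025 to 1040, within the range of the others. The part of choroid plexus RNA in the relation was not tested. Of the relations to depth and to length and GC slopes, none had an adjusted permutation p under 0.1 by r.

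**Figure D4:**
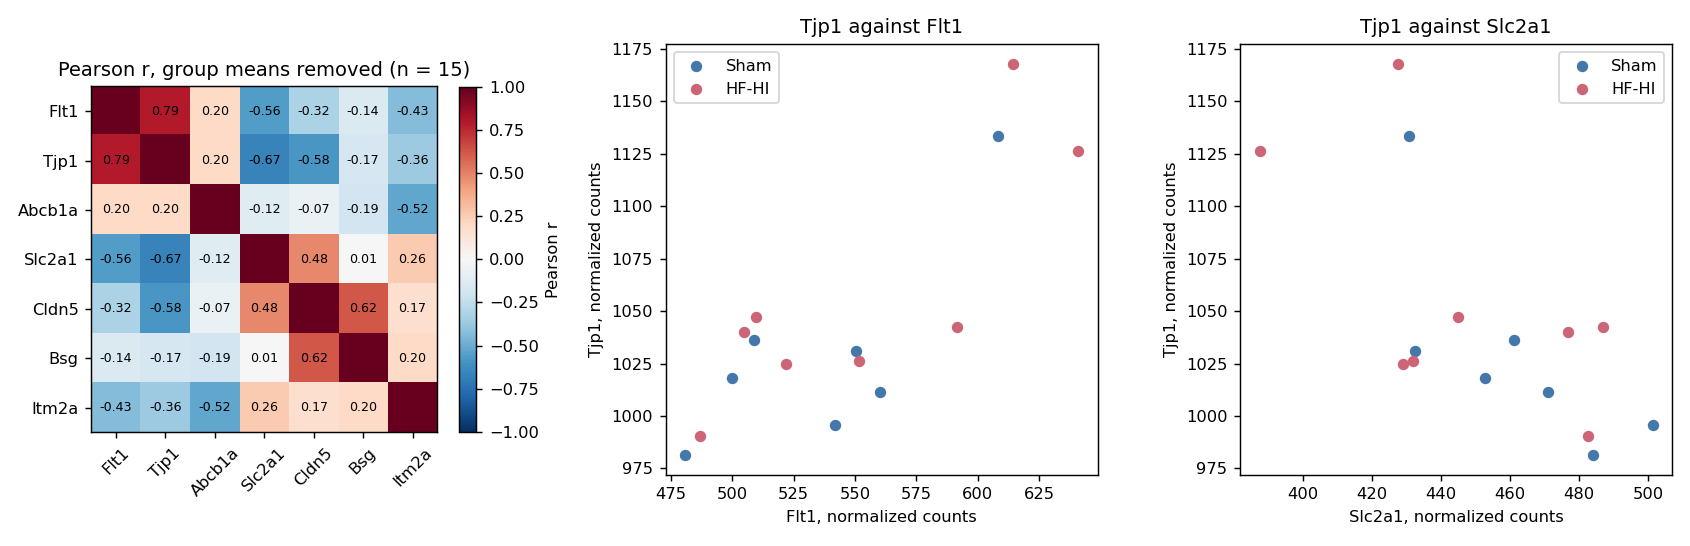
Pearson correlation of log2 summed normalized counts for each pair of the 7 genes over 15 libraries with group means removed (left, color scale from -1 to 1), and normalized counts of Tjp1 against Flt1 (middle) and against Slc2a1 (right), 1 point a library. A set of 3 libraries, 1 Sham and 2 HF-HI, lie apart at Tjp1 counts of 1126 to 1168, at high Flt1 and low Slc2a1.

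The 3 genes outside the set with the most similar pattern over the 15 libraries were named for each member. The highest r was with Chst15 for Cldn5 (0.81), Rb1 for Flt1 (0.84), Cog2 for Slc2a1 (0.85), Pomgnt1 for Abcb1a (0.83), Rnf41 for Itm2a (0.85), Abcf3 for Bsg (0.89) and Clvs1 for Tjp1 (0.85), with group means removed. Next in order were Tsc22d4 and Insyn1 for Cldn5, Pnn and Fam171b for Flt1, Cd99l2 and Use1 for Slc2a1, Ptprm and Hsdl2 for Abcb1a, Ankrd46 and Agfg2 for Itm2a, Hbs1l and Eef1d for Bsg, and Gm10010 and Zfp386 for Tjp1. Among the listed genes other than the member itself, the 99th percentile of r was between 0.58 and 0.68. The named genes were picked as the highest in r, so values above that percentile follow from the choice.

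The wider pathways were read in lists chosen by function. Each list stands beside the shares called over all features, 8.83% of transcripts (4.94% higher and 3.9% lower in HF-HI) and 9.81% of summed genes. In the endothelial identity list 1 of 18 transcripts was called at an unadjusted p of 0.05, against the 8.83% of all transcripts, with a median log2 ratio of -0.04 against -0.00 over all transcripts. It was Podxl-201, for podocalyxin, a sialomucin of the luminal endothelial surface, at 211 ± 10.01 normalized counts for Sham and 187 ± 9.77 for HF-HI. It was below the lowest Sham library in 7 of 8 HF-HI libraries (limma adjusted p = 0.390). Cd34 (642 ± 47.0 and 679 ± 47.6), Ly6e (664 ± 61.9 and 617 ± 36.1) and Ablim1 (792 ± 104 and 765 ± 74.7), the most abundant others by summed normalized counts, had limma adjusted p of 0.653, 0.564 and 0.891.

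In the list of tight and adherens junction genes 3 of 36 transcripts were called (8.33%, against 8.83% of all transcripts). Besides Tjp1-201, they were Cdh2-203, a retained-intron transcript of N-cadherin, at 172 ± 23.0 in Sham and 194 ± 14.7 in HF-HI (limma adjusted p = 0.561), and Ctnnd1-203, of the cadherin-binding p120 catenin, at 171 ± 41.6 and 93.1 ± 51.1 (limma adjusted p = 0.449). Summed per gene, Cdh2 was 1087 ± 58.6 and 1077 ± 51.6 and Ctnnd1 496 ± 95.2 and 434 ± 88.2 (limma adjusted p = 0.943 and 0.678). Ctnnb1, Magi2 and Ctnna2, the most abundant others, had limma adjusted p of 0.649, 0.871 and 0.990 on their sums.

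Among barrier transporters and receptors 2 of 28 transcripts were called, both higher in HF-HI. Insr-201, of the insulin receptor, which also carries insulin across brain endothelium, was 650 ± 21.7 for Sham and 721 ± 28.5 normalized counts for HF-HI. Its values ran from 615 to 672 for Sham and from 666 to 759 for HF-HI, and 7 of 8 HF-HI libraries were above the highest Sham library (limma adjusted p = 0.227). Lrp8-202, of an apolipoprotein E and reelin receptor, was 404 ± 31.5 and 473 ± 66.0 (limma adjusted p = 0.476). On sums per gene the transferrin receptor Tfrc, named after its values were seen, was also called, lower in HF-HI, at 1207 ± 107 and 1075 ± 150 (limma adjusted p = 0.506). Lrp1, Abca2 and Abcc5 had limma adjusted p of 0.840, 0.726 and 0.949 on their sums.

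Insr, Lrp8 and Lrp1 are also made by neurons. In the cortical neuron list 4 of 23 transcripts were called (17.4%, against 8.83% of all transcripts), 3 higher and 1 lower in HF-HI. Higher were those of the kinase Camk2a (7779 ± 392 and 8585 ± 417, limma adjusted p = 0.311), of the synaptic protein Snap25 (Snap25-201, 14637 ± 1092 and 15912 ± 931, limma adjusted p = 0.514) and of the transcription factor Neurod2 (301 ± 25.6 and 347 ± 44.1, limma adjusted p = 0.514). Stmn2-201, of a neuronal microtubule regulator, was lower (1019 ± 70.7 and 949 ± 48.3, limma adjusted p = 0.554). Syt1, Slc17a7 and Syp, the most abundant others, differed by -0.016, 0.044 and 0.056 on log2 sums (limma adjusted p = 0.927, 0.767 and 0.714). The median log2 difference of the list was 0.0086 on sums per gene, against -0.0057 over all genes. Over its transcripts the median log2 ratio was 0.059, against -0.0019 over all transcripts. The part of neurons in the results for Insr and Lrp8 was not tested.

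Of the partners and relatives of basigin, 1 of 19 transcripts was called, Ppia-203, a retained-intron transcript of cyclophilin A, a basigin ligand, at 348 ± 173 and 145 ± 201 (limma adjusted p = 0.476). The Ppia sum was 5608 ± 246 and 5364 ± 390 (limma adjusted p = 0.649), and those of the sodium pump subunit Atp1b1 and of neuroplastin, Nptn, had limma adjusted p of 0.920 and 0.657.

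In VEGF and angiopoietin signaling 2 of 25 transcripts were called, both higher in HF-HI. Epas1-201, of the hypoxia-inducible factor HIF-2 alpha, abundant in endothelium, was 483 ± 24.7 in Sham and 538 ± 39.3 in HF-HI, with 6 of 8 HF-HI libraries above the highest Sham library (limma adjusted p = 0.408). On sums per gene Egln1, an oxygen-sensing hydroxylase of that factor, named after its values were seen, was also called higher, at 587 ± 40.0 and 634 ± 44.6 (limma adjusted p = 0.495). S1pr1 and Akt1 had limma adjusted p of 0.878 and 0.960 on their sums. In Wnt and Norrin signaling 1 of 15 was called, Lrp6-201, of a Wnt co-receptor, at 816 ± 17.1 and 884 ± 41.5, with 6 of 8 HF-HI libraries above the highest Sham library (limma adjusted p = 0.351). Apc, Ctnnb1 and Gsk3b had limma adjusted p of 0.927, 0.649 and 0.918 on their sums.

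**Figure D5:**
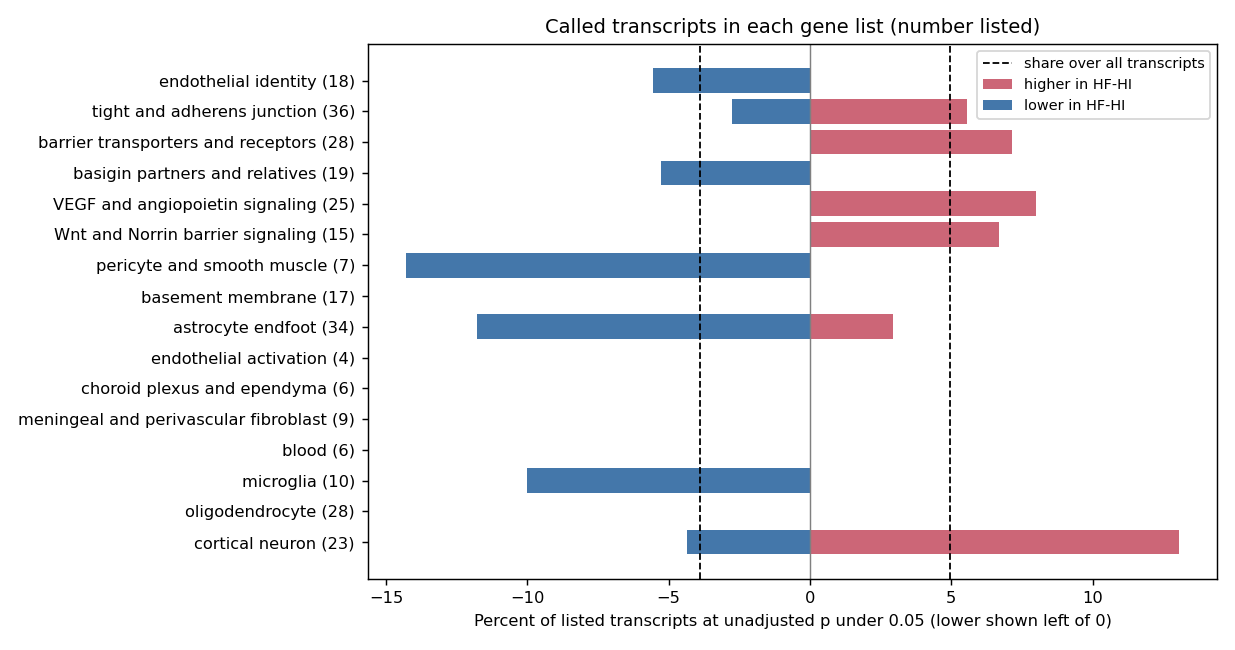
Percent of listed transcripts called at an unadjusted limma p of 0.05 in each gene list (y axis, number of listed transcripts in parentheses), with transcripts higher in HF-HI to the right of 0 and lower ones to the left, and the shares over all transcripts (4.94% higher, 3.9% lower) as dashed lines. The astrocyte endfoot list has 4 of 34 called transcripts lower, and 6 of the 16 lists have no called transcript.

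The cells around the endothelium were read in the same way. In the pericyte and smooth muscle list 1 of 7 transcripts was called (14.3%, against 8.83% of all transcripts). It was Mcam-201, of the adhesion molecule CD146, which endothelium also makes, at 147 ± 9.56 and 124 ± 15.9 normalized counts. All 8 HF-HI libraries were below the Sham median (limma adjusted p = 0.423). The pericyte genes Rgs5 (840 ± 41.2 and 861 ± 42.5) and Vtn (358 ± 12.9 and 342 ± 24.9) had limma adjusted p of 0.792 and 0.672 on their sums, and Tpm1 0.553. Of 17 basement membrane transcripts 0 were called at an unadjusted p of 0.05 by limma, and Sparcl1, Agrn and Timp3 had adjusted p of 0.662, 0.583 and 0.810 on their sums. On sums per gene 1 of the 13 genes listed was called, against 9.81% of all genes. It was the matrix protein Sparc, named after its values were seen, at 589 ± 55.7 and 534 ± 45.9 (limma adjusted p = 0.478).

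Astrocyte endfoot genes had 5 of 34 transcripts called (14.7%, against 8.83% of all transcripts), 4 of them lower in HF-HI. Hepacam-201, of the endfoot adhesion protein GlialCAM, was 361 ± 19.0 and 320 ± 13.3 (limma adjusted p = 0.299), and Mlc1-201, of its membrane partner, was 819 ± 48.1 and 734 ± 83.1 (limma adjusted p = 0.514). Aldoc-201 was 1050 ± 70.9 and 841 ± 138 (limma adjusted p = 0.338). Ndrg2 had a transcript in each direction, Ndrg2-202 at 2255 ± 141 and 1988 ± 72.7 (limma adjusted p = 0.226) and Ndrg2-201 at 992 ± 134 and 1136 ± 78.5 (limma adjusted p = 0.461). Slc1a2, Glul and Apoe had limma adjusted p of 0.653, 0.943 and 0.802 on their sums.

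The lists of endothelial activation (4 transcripts), choroid plexus (6), fibroblast (9), blood (6) and oligodendrocyte genes (28) held 0 called transcripts by limma at an unadjusted p of 0.05, and 1 of 10 microglial transcripts was called, P2ry12-202, lower in HF-HI (limma adjusted p = 0.525). The sum of the kinase Sgk1, in the endothelial activation list, was called higher in HF-HI, at 468 ± 61.6 and 565 ± 105 (limma adjusted p = 0.439), although neither of its 2 transcripts was. Hbb-bs, of blood hemoglobin, was 389 ± 144 and 447 ± 114 normalized counts (limma adjusted p = 0.736). Over all 16 lists 21 of 268 transcripts were called, 7.84%, 11 of them higher and 10 lower in HF-HI.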

How the data were processed

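Cortical total RNA libraries (stranded, ribosomal RNA depleted) from 7 Sham and 8 HF-HI samples were analysed. The authors aligned reads to mm10 with STAR, estimated counts per transcript with eXpress and used DESeq2, and they deposited variance-stabilized log2 values of 10370 transcripts, with the annotation release not given in the sources used here. Names, positions and sequences came from GENCODE and its GRCm38 genome, which matched 10241 identifiers. The transformation was inverted, which gave whole reads (tolerance 0.1) for 100% of values. eXpress divides reads between transcripts that share sequence, so sums per gene were also tested.

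limma 3.58.1 in R 4.3.3 (trended, two-sided, Benjamini-Hochberg over the whole table) was run on the deposited log2 values, on log2 sums of normalized counts with a pseudocount of 1, and with diffSplice, which takes log2 counts per transcript. No filter on low values was applied, and the lowest mean listed was 108 normalized counts. Sums of the 129 unmatched transcripts were each tested as 1 gene. Exact permutation tests used all 6435 splits (smallest p 0.000155) and correlations 100000 resamples. The length and GC slopes of a library are the slopes of its deviations from the mean log2 level on transcript length and GC content. Scripts were tested on simulated data. Replicate numbers did not pair libraries (correlation of same-numbered deviations -0.14 to 0.09). HF-HI replicate 8 has no Sham library of its number, so differences under the replicate block equal those without that library.

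The 7 genes and the lists were chosen with earlier results of these data known. Named were all transcripts of the 7 genes, in each list each gene with a transcript at an unadjusted p under 0.05 and the 3 other most abundant genes (for the marker lists of other cells, examples of these), and the 3 genes most correlated with each member. Alternatives were other scalings, voom on the recovered reads, filters, covariates, a replicate block and each library left out. Some results that the naming rule selects are not reported here.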

Additional observations from a re-analysis of the deposited data

Results flagged for a closer look

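Of 32 sets of values checked (10 transcripts, and for Flt1, Bsg and Tjp1 the sum and the share of 1 transcript, in each group), 3 had a library set apart from the rest of its group by Dixon's 95% criterion, and chance flags about 1 in 20. Flt1-203 was 258 normalized counts in Sham replicate 5, with the next at 195. The Tjp1 sum was 1134 in the same library, with the next Sham library at 1036. The Bsg sum was 1417 in HF-HI replicate 8, with the next HF-HI library at 1602.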

How the results depend on the processing

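Of the 10 transcripts, 1 passed an unadjusted p of 0.05, and 0 passed with the length and GC slopes as covariates, library weights, the log2 size factor as a covariate, the replicate block or voom on the recovered reads. With a library left out the count was 0 to 2, at 2 without HF-HI replicate 1 or 5 or Sham replicate 5. Tjp1-201 kept its call in 11 of 25 alternatives, with adjusted p between 0.426 and 0.998. None of the 7 summed genes passed, and with a library left out 0 to 1 did (Cldn5, without HF-HI replicate 5 or 6). Of 3 genes 0 passed the test of transcript shares, and 1 did under the replicate block and without the high-Ttr libraries, and 0 to 1 with a library left out. The called correlations numbered 1 of 21, 0 with the length and GC slopes removed and 1 to 5 with a library left out (5 without HF-HI replicate 6, and 2 without HF-HI replicate 3, 5 or 8). The count over all lists, 21, was between 14 and 31 in every alternative.

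Signs turned for small differences. Flt1-202 was 0.0026 VSD units without the high-Ttr libraries, and the Flt1 sum -0.065 (log2) with the length and GC slopes. The Bsg summed difference was 0.00188 with those slopes and 0.0072 under the replicate block, and ranged from -0.043 to 0.0072 with a library left out. With a library left out Itm2a-201 ranged from -0.022 to 0.0073 VSD units, the Itm2a sum from -0.085 to 0.029, the difference in spread of Itm2a from -0.046 to 0.038 and that of Tjp1 from -0.0078 to 0.028 (log2). The cause was not tested. The high-Ttr, slope and spread alternatives, and the removal of the 3 libraries highest in Tjp1, were chosen after seeing the data. Over all 10370 transcripts the unadjusted calls numbered 916, 533 with the log2 size factor and 504 with the length and GC slopes as covariates, and over all 7870 genes 772, 459 and 432. Over the 5438 transcripts with a mean of at least 300 normalized counts they numbered 525. At an adjusted p of 0.1 limma called 0 of the summed genes, 16 with library weights and 6 over the 4880 genes past that same minimum, 0 to 14 with a library left out (14 without Sham replicate 5, 9 without Sham replicate 4 or HF-HI replicate 2, 5 without HF-HI replicate 5 and 2 without HF-HI replicate 8), and 0 to 1 of all transcripts in every alternative. The shallowest library held 3496103 reads, and depth limits the precision of every value.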
